A study of Homo sapiens with 6 samples.

Results

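Endoglin (ENG) and 9 other genes of the TGF-beta family were followed in the human breast cancer line MDA-MB-231 and in S1a and S1b, a pair of cell populations isolated from it. The 10 genes are the auxiliary receptors ENG and TGFBR3, the type II receptors TGFBR2 and BMPR2, the type I receptors TGFBR1, ACVRL1, ACVR1 and BMPR1A, and the ligands TGFB1 and TGFB2. They were chosen by gene symbol with signals and differences of these same 6 arrays already known, so their values are given as a description, without p-values. Of the 10 genes, 9 had at least 1 annotated probe set, 16 probe sets in all among 22277 on the array. No probe set was annotated to BMPR1A, which was not analysed here. After a filter on low values, 8 genes remained among 7554 in the whole series, and ACVRL1 did not pass.

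TGF-beta family ligands are secreted dimers that bring type II and type I receptors together. The type II receptor then phosphorylates the type I receptor, which in turn phosphorylates SMAD proteins that enter the nucleus with SMAD4. TGF-beta itself acts mainly through TGFBR2 and TGFBR1 on SMAD2 and SMAD3, whereas bone morphogenetic proteins (BMPs) act through BMPR2 and receptors such as ACVR1 and BMPR1A on SMAD1 and SMAD5. Auxiliary receptors bind ligand and present it to these kinases. Endoglin is best known on endothelial cells, where it works with the type I receptor ACVRL1. In breast cancer cells, TGF-beta signalling is known both for restraint of growth and for promotion of invasion.

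Total RNA was labelled with biotin and hybridised to 6 expression arrays, 2 for the parental line, 2 for S1a and 2 for S1b. MDA-MB-231 is a triple-negative line with mesenchymal traits. S1a and S1b are labelled as seeder cell populations, each isolated separately, and all cells were kept subconfluent in DMEM with 10% fetal bovine serum. The titles name biological replicates but no separate cultures, so the spread given here measures only differences between arrays within a population. Standard errors and p-values rest on that spread, pooled over the 3 populations and drawn toward a trend over all genes. They too measure only differences between arrays. No isolated population of another kind was measured, and an effect of isolation as such cannot be told apart from one of seeding.

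Signals are the deposited MAS5 intensities on a linear scale. A value of 51.6 units, the 40th percentile of the mean signal over all named probe sets, served as the lower limit for testing a gene. Differences are on the scale of log2(signal + 3.942), which understates the change of dim genes. Where the dimmer population lay under 51.6 units, the brighter mean divided by 51.6 is given as "at least N-fold". Medians of all probe sets lay between 87.6 and 106 units on the 6 arrays. Signals of different probe sets are not comparable as transcript levels, so each gene is compared only with itself. In RNA from a whole population, more cells with a transcript and more transcript per cell cannot be told apart.

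The identity of the cells was checked on marker lists. Of 7 measured markers of mesenchymal breast cancer lines, 6 were above the limit in parental and S1a cells and 7 in S1b, with vimentin (VIM) between 18446 and 27237 units. Of 8 luminal markers, 5 were above the limit in parental cells, 5 in S1a and 6 in S1b. The epithelial genes KRT18, KRT19, KRT8 and EPCAM were above it in all populations. PGR read no more than 19 units and CDH1 no more than 30 on any array. ESR1 read 61.5 and 48.2 units in parental cells, 18.3 and 31.3 in S1a and 23.6 and 82.1 in S1b. ERBB3 read 30.2 and 39.8 units in parental cells, 59.9 and 68.5 in S1a and 47.9 and 56.9 in S1b. Of 10 stromal markers, 3 were above the limit in parental cells and 2 in each isolate, and the sum of the list came mostly from NT5E, a surface enzyme that carcinoma cells also express.

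ENG was high in 1 isolate only, S1b, and passed the filter through that isolate. Its brighter probe set (201809_s_at) read 17.5 and 18.1 units in parental cells, 41.8 and 52.6 in S1a, and 551 and 462 in S1b. The S1b arrays stood far above the other 4, and both S1a arrays lay above both parental arrays without overlap. The S1b mean of 507 ± 63 units (SD, n = 2) was at least 9.82-fold above the parental mean of 17.8 ± 0.388 and also at least 9.82-fold above the S1a mean of 47.2 ± 7.66, since both were under the limit. On the log2 scale the difference of S1b from S1a was 3.32 ± 0.3 (SE), that of S1b from parental 4.55 ± 0.3 and that of S1a from parental 1.23 ± 0.3. Because the parental and S1a means were under the limit, no fold change was assigned between them.

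The other ENG probe set (201808_s_at) was dim and gave the same order of means. It read 5.88 and 8.27 units in parental cells, 39.8 and 8.08 in S1a, and 63.9 and 91.7 in S1b. The S1b arrays were again the highest, but here 1 S1a array lay within the parental range. Its S1b mean was at least 1.51-fold above that of either other population, and the log2 difference of S1b from S1a was 1.81.

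**Figure D1:**
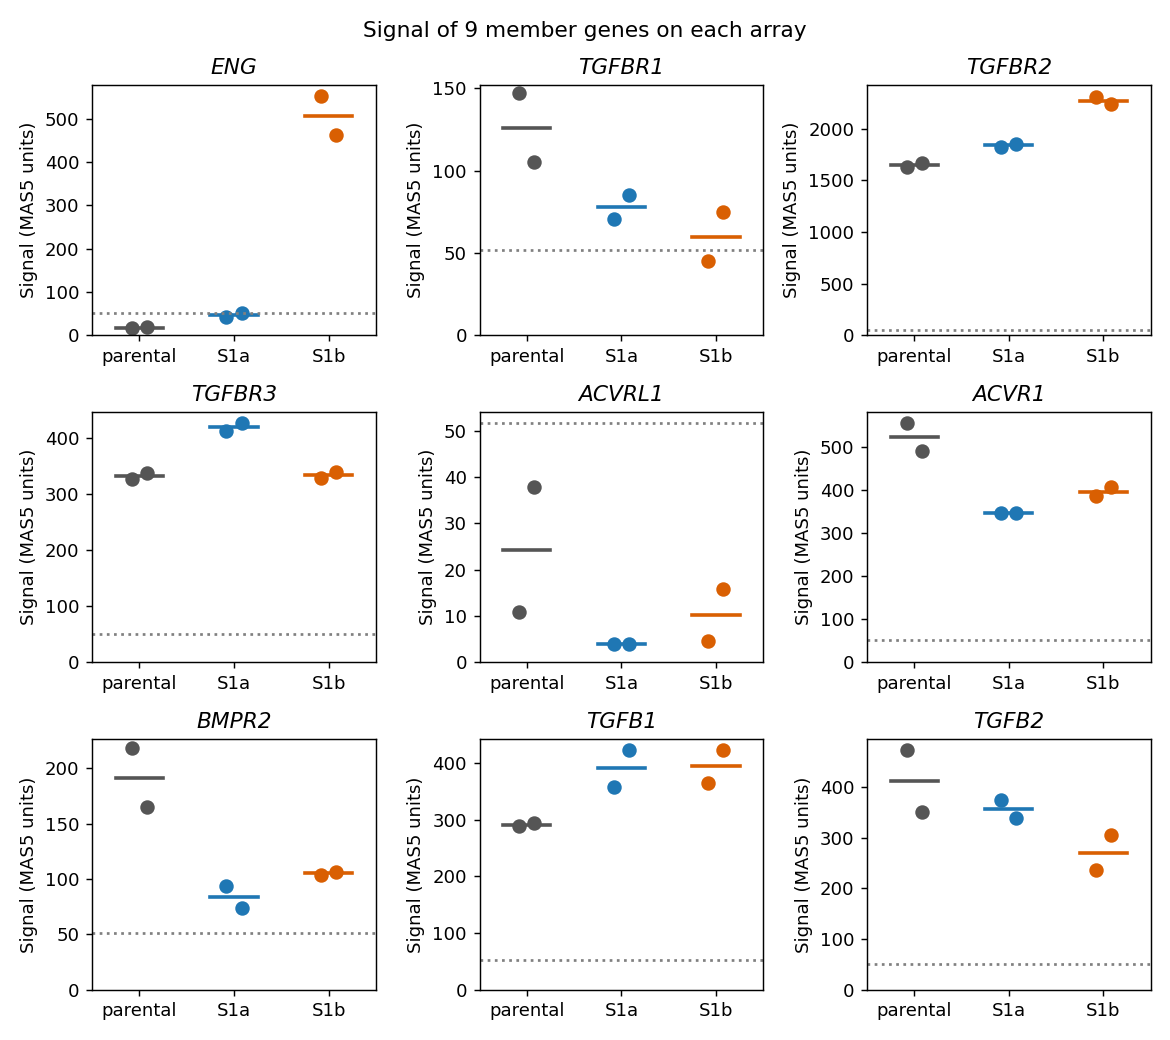
Signal in MAS5 units (vertical axes, each starting at 0) of the brightest probe set of 9 genes in the parental line, S1a and S1b. Points are single arrays, bars are means of 2 arrays, and the dotted line is the limit of 51.6 units. ENG reads 551 and 462 in S1b and at most 52.6 elsewhere, and every ACVRL1 point lies under the limit.

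The sequence upstream of ENG is shown because ENG had the largest difference of S1b from S1a among the 8 genes past the filter. It is the 250 bases before the start of the gene at chr9:127854659-127854908, minus strand, in RefSeq's GRCh38.p14, written 5′ to 3′ along the gene. BMPR2, which was lower in both isolates on both of its probe sets, is shown beside it, from chr2:202376077-202376326, plus strand, same build. Capitals mark matches on either strand to 4 short motifs, namely the ETS factor core GGAAG, the GC box GGGCGG, the SMAD box CAGAC and the GC-rich SMAD box GGCGCC.
ENG: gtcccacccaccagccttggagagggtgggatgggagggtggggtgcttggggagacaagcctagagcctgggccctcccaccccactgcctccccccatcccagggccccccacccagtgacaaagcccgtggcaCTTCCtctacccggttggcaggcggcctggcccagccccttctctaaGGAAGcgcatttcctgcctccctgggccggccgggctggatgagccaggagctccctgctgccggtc
BMPR2: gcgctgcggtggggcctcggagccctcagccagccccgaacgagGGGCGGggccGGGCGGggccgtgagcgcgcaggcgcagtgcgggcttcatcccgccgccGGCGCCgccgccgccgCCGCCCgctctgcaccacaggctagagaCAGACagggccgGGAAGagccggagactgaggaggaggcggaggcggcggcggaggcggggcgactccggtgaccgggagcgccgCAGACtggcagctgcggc

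The ENG stretch held 2 matches to the ETS core, at 114 and 67 bases before the start, and none to the other 3 motifs. The BMPR2 stretch held 1 ETS core, 3 GC boxes, 2 SMAD boxes and 1 GC-rich SMAD box. None of these matches overlapped another. Such letters are common, since 65.1% of 35116 RefSeq promoter stretches of the same length held the ETS core, 42.6% the GC box, 38% the SMAD box and 16.4% the GC-rich SMAD box. G and C made up 69.6% of the ENG stretch and 79.2% of the BMPR2 stretch, beside a median of 58% over all stretches. RefSeq promoters were matched for 9 of the 10 genes.

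The summed endothelial marker list was not higher in S1b, the population with high ENG, although single markers were. Of 14 endothelial markers 13 were measured, of which 1 was above the limit in parental cells, 2 in S1a and 2 in S1b. Their summed signal was 375 and 435 units for the parental line, 391 and 353 for S1a, and 337 and 315 for S1b. The defining genes PECAM1, CDH5 and VWF read at most 40.8, 38.7 and 4.89 units in S1b, but CDH5 was at 38.7 and 23.8 there against 7.32 and 3.4 in parental cells and 57.8 and 43.1 in S1a. The receptor KDR was above the limit in S1b, at 67.7 and 58 units, and read 21.3 and 79.7 in parental cells and 49.5 and 60.6 in S1a. TIE1 was highest in S1b without overlap, at 26.9 and 52.2 units against at most 19.4 elsewhere. EGFL7 went the other way, from 145 and 133 units in parental cells to 85.6 and 85.7 in S1a and 70 and 45.4 in S1b. The list therefore did not move in 1 direction, and its part in the ENG difference was not tested. The summed signal of 10 leukocyte markers was 184 and 174 units in S1b against 436 and 314 in parental cells. The stromal list summed to 6671 and 6603 units in S1b, 5942 and 6591 in S1a and 5607 and 6049.9 in parental cells, highest in S1b, and its part in the ENG difference was not tested.

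**Figure D2:**
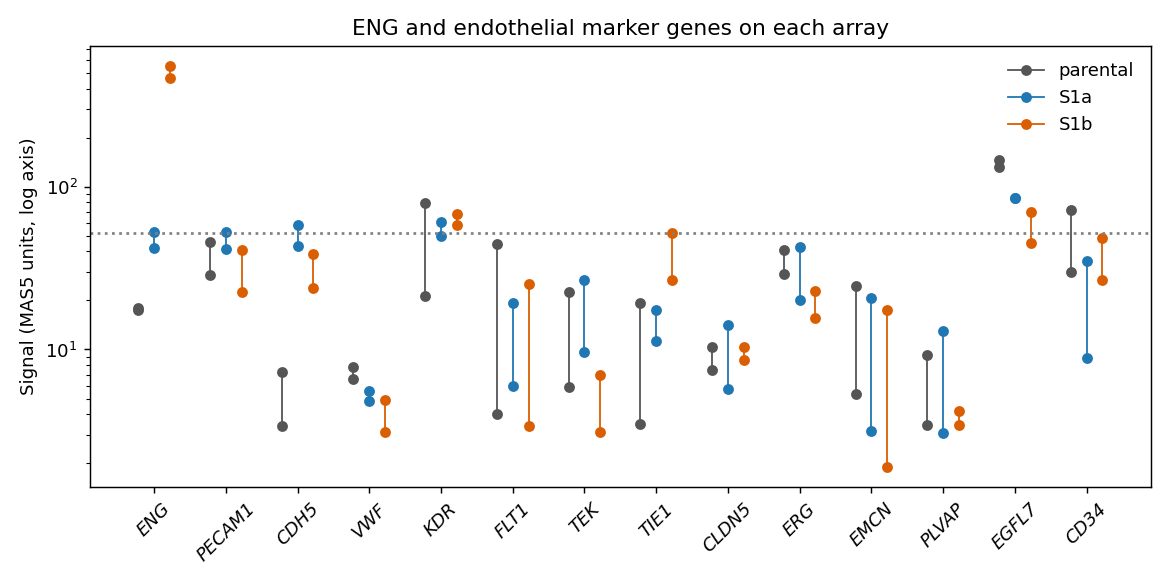
Signal in MAS5 units (log axis) of ENG and of 13 endothelial marker genes, 2 arrays per population joined by a line, with the limit of 51.6 units dotted. ENG separates the S1b arrays (551 and 462) from the rest. PECAM1, CDH5 and VWF stay under the limit in S1b, KDR lies above it (67.7 and 58), and TIE1 is highest in S1b (26.9 and 52.2). Heights of different genes are not comparable.

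Genes beside ENG on chromosome 9 were also read, a set chosen after the values of ENG were seen. The 5 tested genes nearest on each side in the RefSeq gene order, 10 in all, differed between S1b and S1a by -0.12 to 0.57 on the log2 scale. With limma at an adjusted p of 0.05, 0 were called higher and 0 lower, beside 0.477% and 1.5% of all genes, and at an unadjusted p of 0.05 the counts were 1 and 0. Relative to the parental line, 7 of the 10 were lower in the isolates on average (limma adjusted p under 0.05), beside 24% of all genes, and the 10 differences ran from -0.93 to -0.19. With quantile normalization the count was 5, beside 21.4% of all genes, and with median centring it was 5, beside 14.2%. FPGS and AK1, the nearest tested genes on either side, differed by 0.4 ± 0.153 (limma adjusted p = 0.239) and 0.05 ± 0.0999 (0.861).

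The genes whose log2 signal followed ENG most closely over the 6 arrays were LYPD1, ARAP1, VAMP2, KCNN4 and FMNL1. Pearson's r with ENG was 0.9823, 0.9797, 0.9748, 0.9721 and 0.9692, the 5 highest among 1845 genes that ranged over at least 1 log2 unit. The arrays form 3 populations, so these coefficients mostly describe 3 means. LYPD1 averaged 33, 70.1 and 190 units in parental, S1a and S1b cells, and ARAP1, a GTPase regulator, 246, 338 and 517 units. The differences of S1b from S1a were 1.39 ± 0.297 for LYPD1 and 0.61 ± 0.132 for ARAP1, and 0.65, 0.49 and 0.68 for VAMP2, KCNN4 and FMNL1. These are given without a test, since the genes were chosen by their likeness to ENG on the same arrays. SPARC, a matricellular glycoprotein of the mesenchymal marker list named after its values were seen, averaged 38.4 units in parental cells, 37 in S1a and 380.4 in S1b.

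TGFBR3 (betaglycan), the other auxiliary receptor, binds TGF-beta ligands and inhibin. It read 327 and 338 units in parental cells, 412 and 427 in S1a, and 329 and 339.5 in S1b. On the deposited scale the S1a arrays were the highest and did not overlap the rest, while parental and S1b arrays overlapped. S1a differed from parental by 0.33 ± 0.127 (log2, SE) and S1b by 0.01 ± 0.127, and S1b from S1a by -0.32 ± 0.127. The isolates on average differed from parental by 0.17, by 0.25 with quantile normalization and by 0.36 with median centring. Under both of these scalings all 4 isolate arrays lay above both parental arrays. The auxiliary receptors thus had their highest values in different isolates, ENG in S1b and TGFBR3 in S1a.

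TGFBR2, the type II receptor for TGF-beta, was lowest in the parental line, intermediate in S1a and highest in S1b. Its brighter probe set (208944_at) read 1633 and 1672 units in parental cells, 1819.8 and 1857 in S1a, and 2311 and 2235 in S1b. No population overlapped another. The S1b mean of 2273 ± 53.8 units (SD, n = 2) was 1.38-fold the parental mean and 1.24-fold the S1a mean, and the S1a mean was 1.11-fold the parental mean. The log2 differences from parental were 0.15 ± 0.0806 in S1a and 0.46 ± 0.0806 in S1b. The dimmer probe set (207334_s_at) averaged 87 ± 17.7, 116 ± 19.7 and 128 ± 4.19 units in parental, S1a and S1b cells, with S1a and S1b overlapping.

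BMPR2, the type II receptor for BMPs, was lower in both isolates on both of its probe sets. The brighter one (210214_s_at) read 218 and 165 units in parental cells, 93.8 and 73.5 in S1a, and 104 and 106 in S1b. All isolate arrays lay under both parental arrays, and S1a lay under S1b. The parental mean was 2.29-fold the S1a mean and 1.82-fold the S1b mean, with log2 differences of -1.15 ± 0.252 and -0.83 ± 0.252. The other probe set (209920_at) read 174 and 152 units in parental cells, 77.2 and 92.3 in S1a and 102 and 131 in S1b, with the same order and no overlap. The difference between the isolates, 0.32 ± 0.252, was little more than its standard error.

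TGFBR1, the type I receptor paired with TGFBR2, was also lower in the isolates. Its only probe set read 147 and 105 units in parental cells, 70.8 and 85.1 in S1a, and 45 and 74.8 in S1b. The isolates lay under the parental line and overlapped each other. The parental mean was 1.62-fold the S1a mean and 2.1-fold the S1b mean, with log2 differences of -0.65 ± 0.338 and -1.05 ± 0.338. The gap between the parental arrays was wider than that between the lower of them and the S1a mean.

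ACVR1, a type I receptor for BMPs and activins, read 556 and 492 units in parental cells, 346 and 347 in S1a, and 386 and 407 in S1b. The 3 populations did not overlap, with parental highest and S1a lowest. The log2 differences from parental were -0.59 ± 0.125 in S1a and -0.4 ± 0.125 in S1b, and S1b differed from S1a by 0.19 ± 0.125. ACVR1 and BMPR2 thus shared the order parental, S1b, S1a.

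ACVRL1, the endothelial type I receptor that works with endoglin, was dim on every array. It read 10.8 and 37.9 units in parental cells, 3.93 and 4.06 in S1a, and 4.71 and 15.8 in S1b. All 6 values lay under the limit of 51.6 units, so no difference was assigned, and S1b, the population with high ENG, did not stand out.

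The ligand genes differed in opposite directions. TGFB1 on its brighter probe set (203085_s_at) read 288 and 294 units in parental cells, 358 and 423 in S1a, and 365 and 423 in S1b. Both isolates lay above the parental line and did not differ from each other beyond their spread. The log2 differences from parental were 0.42 ± 0.145 in S1a and 0.43 ± 0.145 in S1b. The dim TGFB1 probe set (203084_at) stayed between 10.3 and 39.1 units with overlap throughout.

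TGFB2, the isoform that depends most on betaglycan for binding, tended the other way. Its brightest probe set (209909_s_at) read 473 and 350.1 units in parental cells, 375 and 338 in S1a, and 236 and 305 in S1b. S1a overlapped the parental line, and S1b lay under both. The log2 differences from parental were -0.19 ± 0.183 in S1a and -0.59 ± 0.183 in S1b. On 209908_s_at the means were 111 ± 28.4, 81.1 ± 2.05 and 47.4 ± 16.8 units in parental, S1a and S1b cells, and on 220407_s_at 246 ± 52.9, 192 ± 0.629 and 170.4 ± 27.7. Both gave the order of the brightest probe set. The fourth probe set (220406_at) was dim, between 10.4 and 59 units, and was highest in S1a.

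**Figure D3:**
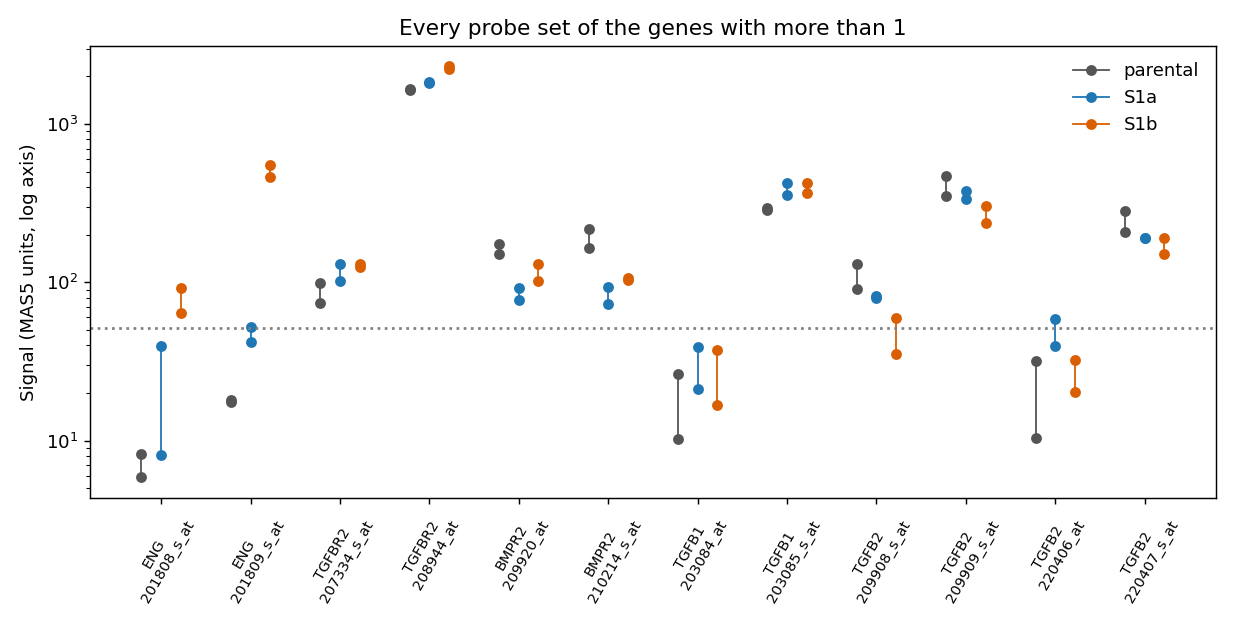
Signal in MAS5 units (log axis) of every probe set of the 5 genes with more than 1, with the 2 arrays of each population joined by a line and the limit of 51.6 units dotted. Both ENG probe sets are highest in S1b, both BMPR2 probe sets are highest in parental cells, and 3 of the 4 TGFB2 probe sets are lowest in S1b.

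Of the 8 genes past the filter, ENG, TGFBR2 and TGFB1 had all 4 isolate arrays above both parental arrays, and TGFBR1, ACVR1 and BMPR2 had all 4 below. The counts, 3 above and 3 below, stand beside 27.6% and 29.7% of all 7554 genes with the same patterns. Between the isolates, ENG, TGFBR2, ACVR1 and BMPR2 had both S1b arrays above both S1a arrays, and TGFBR3 and TGFB2 had both below. Those counts, 4 and 2, stand beside 25.9% and 23.9% of all genes. The median log2 difference of the 8 genes was -0.11 for the isolates on average relative to the parental line, beside -0.02 over all genes. Between S1b and S1a it was 0.1, beside 0.01. S1a and S1b are set against the same 2 parental arrays, so their differences from parental are not independent.

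**Figure D4:**
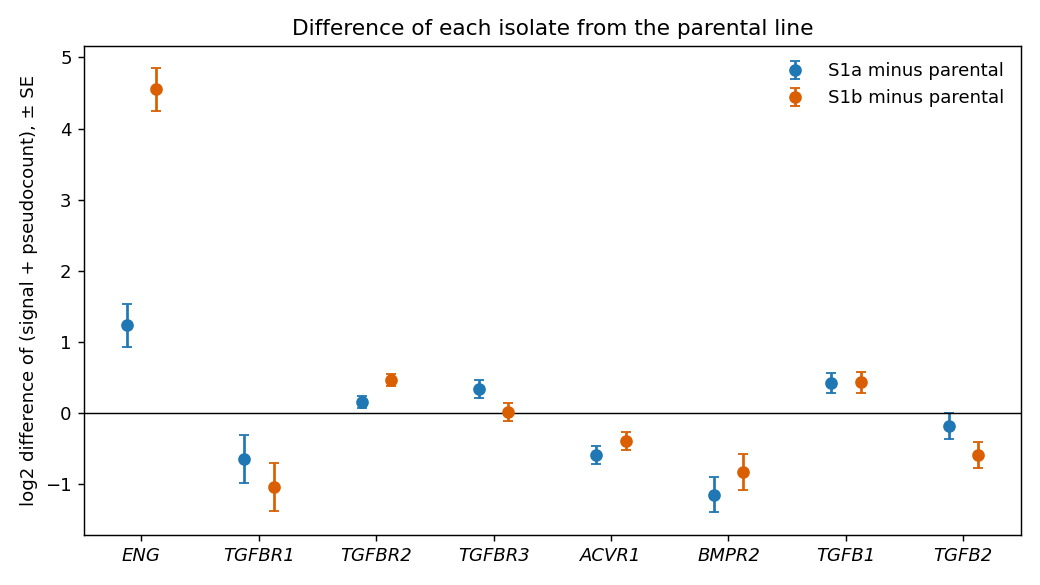
Difference of S1a (blue) and of S1b (orange) from the parental line on the scale of log2(signal + 3.942) for the 8 genes past the filter, with bars of 1 SE from a model of all 6 arrays. ENG stands at 1.23 in S1a and 4.55 in S1b, and the other genes lie between -1.15 and 0.46.

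Other genes of the pathway, none of them among the 10, were tested with limma over all 7554 genes. Their lists were also chosen with earlier results of these data known, so the counts and p-values are a description of these arrays. The genes named from each list are mostly those with its smallest p-values. Of 162 listed genes, 140 had a probe set and 97 passed the filter. In the isolates on average, 21 of the 97 rose relative to the parental line and 37 fell at an adjusted p of 0.05, beside 23.5% of all genes that rose and 24% that fell. With each array centred on its median, which shifts the median of all genes by 0.19, 28 rose and 24 fell, beside 35.6% and 14.2% of all genes, and with quantile normalization 24 and 29, beside 26.2% and 21.4%. The pooled counts thus moved in the same direction as those of all genes. The lists did not move equally, and the 31 genes known to respond to TGF-beta and SMAD3 went from 6 higher and 15 lower to 6 and 13 with median centring. S1a alone gave 18 higher and 31 lower against parental, beside 20% and 20.3% of all genes, and S1b 18 higher and 30 lower, beside 21.4% and 21.5%. With median centring these became 26 and 17 in S1a, beside 30.9% and 11.4% of all genes, and 26 and 22 in S1b, beside 32.5% and 13%. Without S1a replicate 2 the lower count in S1a was 17. The median difference of the 97 was -0.23 in the mean of both isolates. Rises and falls of single lists and genes below are those of the isolates on average, unless another comparison is named. The counts of single lists stand beside the same shares of all genes. These are 23.5% that rose and 24% that fell, or 35.6% and 14.2% with median centring.

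Among 6 tested ligands, INHBB and INHBC, which encode subunits of activins, rose and BMP4 fell. INHBB went from 56.9 ± 3.48 units in the parental line (SD, n = 2) to 406 ± 27.4 units in S1a cells and 229.8 ± 91.1 in S1b cells, a log2 difference of 2.32 ± 0.225 (limma adjusted p = 2.68e-05). BMP4 went from 613 ± 63.3 to 197 ± 15 and 123 ± 30.8 units, -1.96 ± 0.17 (1.33e-05). The activin subunit and the BMP thus changed in opposite directions in both isolates. INHBC rose by 0.35 ± 0.118 (adjusted p = 0.0318), and passed in S1b (0.51 ± 0.136, 0.0129) but not in S1a (0.19 ± 0.136, 0.28). Its call ended when its probe sets were averaged (0.918) and without the variance trend (0.0606). It also ended without parental replicate 2, S1a replicate 1, S1a replicate 2 or S1b replicate 1. GDF11 did not pass (0.54 ± 0.254, adjusted p = 0.103).

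Of 3 other receptors tested, the activin type II receptors ACVR2A and ACVR2B fell and the type I receptor ACVR1B did not pass (-0.04 ± 0.154, limma adjusted p = 0.863). ACVR2A averaged 183 units in parental cells, 110.1 in S1a and 126 in S1b (-0.61 ± 0.208, adjusted p = 0.0346). ACVR2B averaged 103, 49.6 and 63.9 units (-0.83 ± 0.302, adjusted p = 0.0441). In S1b alone neither passed (adjusted p = 0.11 and 0.161). Both calls ended with quantile normalization (0.0806 and 0.137) and with median centring (0.111 for each). Both also ended with no filter on low values (0.0774 and 0.104) and with array weights (0.0538 and 0.0771). The ACVR2B call ended with the replicate block as well (0.0671). The ACVR2A call ended without any single array other than parental replicate 2 (up to 0.235), and the ACVR2B call without parental replicate 2 (0.223), S1a replicate 2 (0.111) or either S1b array (0.0937 and 0.0731).

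Of 7 co-receptors and membrane regulators, 0 rose and 5 fell with limma (median -0.36), against 1 and 5 at an unadjusted p of 0.05, but with median centring 1 rose and 1 fell. FKBP1A, the immunophilin that holds type I receptors inactive, fell by 0.45 ± 0.0711 on the log2 scale (limma adjusted p = 0.000593) and kept its call under both scalings. The neuropilin NRP1 (-0.36 ± 0.0805, adjusted p = 0.00458), caveolin 1 (CAV1, -0.3 ± 0.0768, 0.0094) and the decoy receptor BAMBI (-0.5 ± 0.155, 0.0231) lost theirs with median centring (0.184, 0.416 and 0.134). NRP1 also lost its call when its probe sets were averaged (0.058), and BAMBI with quantile normalization (0.0526). The CAV1 call also ended without S1a replicate 1 (0.062), and the BAMBI call without any single array other than S1b replicate 2 (0.053 to 0.0681). BAMBI did not pass in S1b alone (-0.48 ± 0.18, adjusted p = 0.0539). NEO1 did not pass in either direction.

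Genes of ligand storage and activation gave 1 rise and 3 falls among 9 tested (median -0.26). The integrin chain ITGAV, which takes part in the release of latent TGF-beta, fell by 0.99 ± 0.0818 on the log2 scale (limma adjusted p = 1.01e-05). Thrombospondin 1 (THBS1), another activator, fell by 0.84 ± 0.105 (0.000132), and the procollagen protease BMP1 by 1.34 ± 0.311 (0.00554). FBN1, the fibrillin that anchors latent complexes, rose by 0.58 ± 0.121 (0.00321). It passed in S1a (0.78 ± 0.14, 0.00178) but not in S1b (0.38 ± 0.14, 0.0507). The 4 calls for the isolates on average held in every alternative that gave a value. The membrane protease MMP14 did not pass between the isolates (0.51, adjusted p = 0.102).

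Of 6 tested secreted antagonists, 3 rose and 1 fell (median 0.57). The BMP antagonist CHRDL1 averaged 89.6 ± 23.2 units (SD, n = 2) in parental cells, 608 ± 3.13 in S1a and 795 ± 107 in S1b, a rise of 2.92 ± 0.157 (limma adjusted p = 5.78e-07). Follistatin (FST), which binds activins, averaged 724 ± 92.6, 2616 ± 152 and 1626 ± 66.3 units, a rise of 1.51 ± 0.0914 (1.29e-06). FSTL1 rose by 0.66 ± 0.0908 (0.000244). TWSG1, which modulates BMP binding, fell by 0.46 ± 0.114 (0.00786), a call that ended with median centring (0.0744). It passed in S1b (-0.72 ± 0.132, 0.0017) but not in S1a (-0.2 ± 0.132, 0.255).

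**Figure D5:**
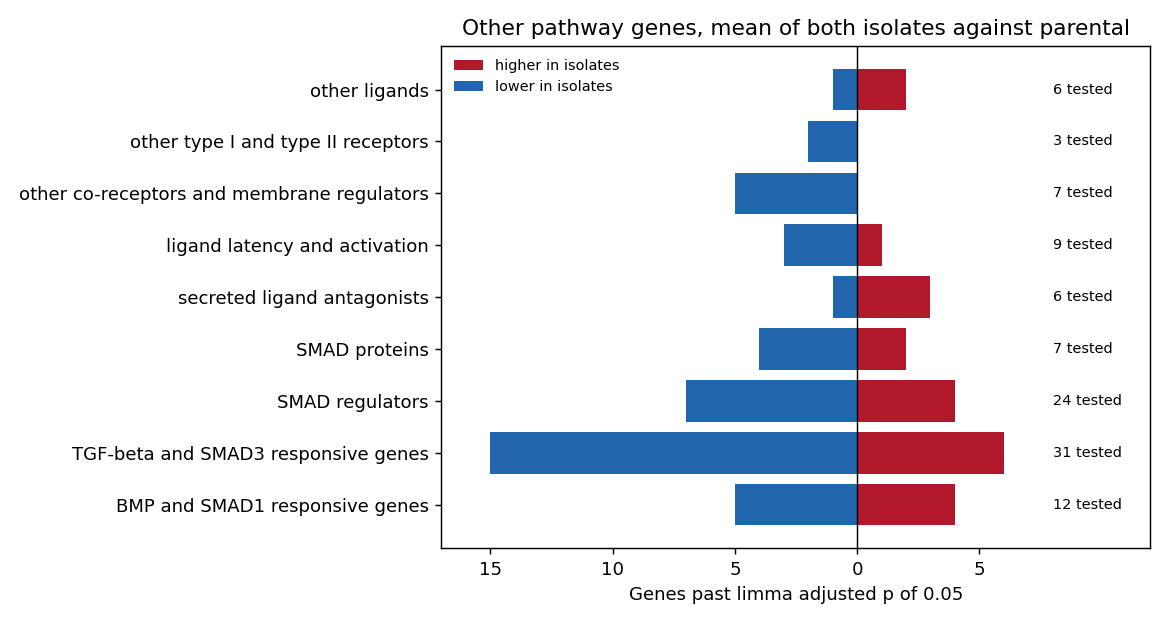
Number of genes in 9 pathway lists that rose (red, to the right) or fell (blue, to the left) in the isolates on average, relative to the parental line, at a limma adjusted p of 0.05, with the number tested beside each bar. In all, 21 rose and 37 fell, beside 23.5% and 24% of all genes; with median centring 28 rose and 24 fell, beside 35.6% and 14.2% of all genes.

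Among 7 tested SMAD genes, SMAD1 and SMAD6 rose and SMAD2, SMAD3, SMAD4 and SMAD7 fell. SMAD2, which carries the TGF-beta and activin signal, averaged 1010 ± 83.6 units in parental cells (SD, n = 2), 434 ± 48.4 in S1a and 523 ± 85.1 in S1b, a difference of -1.08 ± 0.122 (limma adjusted p = 6.94e-05). SMAD1, which carries the BMP signal, averaged 94.6 ± 29, 236 ± 21.6 and 165 ± 24.7 units, a difference of 1.06 ± 0.216 (0.0027). SMAD1 and SMAD2 thus changed in opposite directions. SMAD4, the common partner, fell by 0.57 ± 0.111 (0.00199), a call that ended when its probe sets were averaged (0.427), and the inhibitory SMAD7 fell by 1.1 ± 0.265 (0.00658). SMAD3 fell by 0.4 ± 0.124 (0.0232), and passed in S1b (-0.56 ± 0.143, 0.0104) but not in S1a (-0.24 ± 0.143, 0.212). Its call ended with median centring (0.216) and without parental replicate 2, S1a replicate 1 or S1b replicate 1. SMAD6 passed in S1a but not in S1b. SMAD5 did not pass (0.08 ± 0.258, 0.81).

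SMAD regulators gave 4 rises and 7 falls among 24 tested (median -0.11), and 7 rises and 4 falls with median centring. The ubiquitin ligase NEDD4L rose by 1.12 ± 0.0712 (limma adjusted p = 1.84e-06). The deubiquitinase USP9X fell by 0.65 ± 0.0727 (6.6e-05) and the ubiquitin ligase WWP1 changed by -0.82 ± 0.104 (0.000146). The phosphatase gene CTDSPL fell by 0.79 ± 0.149 (0.00179), but not when its probe sets were averaged (0.101). PMEPA1, a feedback inhibitor that TGF-beta induces, averaged 101 ± 1.02 units in parental cells, 55.8 ± 18.1 in S1a and 15.5 ± 9.96 in S1b. It was at least 1.96-fold lower in the mean of both isolates (0.00899), and passed in S1b (0.00253) but not in S1a (0.202).

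Of 31 tested genes known to respond to TGF-beta and SMAD3, 6 rose and 15 fell (median -0.32), beside 23.5% and 24% of all genes. With median centring 6 rose and 13 fell, beside 35.6% and 14.2% of all genes. CCN2, a secreted matrix factor, rose by 1.58 ± 0.0765 (limma adjusted p = 3e-07), and IL11, a cytokine, by 1.04 ± 0.106 (3.9e-05). The transcription factor SNAI2 fell by 1.24 ± 0.0895 (4.18e-06), and the protease inhibitor TIMP1 fell by 1.14 ± 0.0892 (6.93e-06). The scaffold NEDD9 changed by -2.64 ± 0.214 (8.87e-06). The list therefore held called genes in both directions. Of 12 tested BMP and SMAD1 responsive genes, 4 rose and 5 fell, against 5 and 3 with median centring. ID4 averaged 27.6 units in parental cells and rose at least 2.13-fold (0.000561), although 1 of its 2 probe sets above the limit gave the opposite sign and the call ended when they were averaged (0.139). The Notch target HEY1 rose at least 1.88-fold (0.00876), a call that ended without parental replicate 1 (0.05). GATA3 fell by 1.55 ± 0.131 (1.12e-05). The SMAD, TGF-beta and BMP lists share members such as SMAD7.

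Between S1b and S1a, 0 of the 97 pathway genes were higher and 3 were lower with limma at an adjusted p of 0.05, beside 0.477% and 1.5% of all genes. At an unadjusted p of 0.05 the counts were 5 and 17, and leaving out a parental array raised the lower count to 8 or 7, while leaving out any single isolate array reduced it to 1. TIMP3, an inhibitor of metalloproteinases, averaged 1073 ± 83.8 units in parental cells (SD, n = 2), 1231 ± 5.69 in S1a and 496 ± 49.4 in S1b, and S1b differed from S1a by -1.31 ± 0.108 (log2, adjusted p = 0.000578). FST and IL11 were above parental in both isolates and lower in S1b than in S1a, with differences of -0.68 ± 0.106 (0.0123) and -0.75 ± 0.122 (0.0162). The FST and IL11 calls ended when any single S1a or S1b array was left out (adjusted p = 0.0574 to 0.122 for FST and 0.0905 to 0.136 for IL11). GATA2, GATA3, TWSG1, ITGAV, BMP4 and INHBB, each among the 2 smallest p-values of its list, did not pass (adjusted p = 0.147, 0.0703, 0.0837, 0.0778, 0.123 and 0.142).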

How the data were processed

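The deposited intensity values are MAS5 signals per probe set on a linear scale, per the submitters' processing notes, whose MAS5 version is not given in the sources used here. Every array had a trimmed mean of 500.2 units, so the arrays were scaled to the same trimmed mean, although their medians differed. Detection calls and scanner files were not used here.

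The 10 genes and the pathway and marker lists were chosen with earlier results of these data known. Of 22277 probe sets, 62 controls were left out, and 19064 had 1 gene symbol (1043 had several, 2108 none). Symbols were updated through RefSeq (GRCh38.p14), which matched 19052. A gene took its probe set with the highest mean. Probe sets averaging under 51.6 units (40th percentile) were left out. Values were log2(signal + 3.942), the pseudocount being the 10th percentile of signals.

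Group means of the 3 populations were estimated from the 6 arrays together in limma 3.58.1 (R 4.3.3, variance trend, 3 residual degrees of freedom), with Benjamini-Hochberg adjustment over 7554 genes and a threshold of 0.05. P-values in parentheses are limma adjusted p. Named were all members, up to 4 genes per list by p for both isolates against parental and up to 2 for S1b against S1a, and the 5 genes most correlated with ENG. The procedure was tested on simulated data. Replicate numbers did not pair the arrays.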

Additional observations from a re-analysis of the deposited data

Results flagged for a closer look

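The isolates differed from each other in 3 of the named pathway genes, by the limma test of S1b against S1a (log2 difference, adjusted over 7554 genes, n = 2 arrays each). TIMP3 was lower in S1b by -1.31 (adjusted p = 0.000578), with S1a not shown to differ from parental (0.2 ± 0.108, adjusted p = 0.167). FST differed by -0.68 (0.0123) and IL11 by -0.75 (0.0162), and for both genes the S1b arrays lay between those of parental and S1a cells. The TIMP3 call held in every alternative that gave a value (none with shared-probe suffixes left out), with adjusted p-values of up to 0.0482, while those of FST and IL11 reached 0.239 and 0.171.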

How the results depend on the processing

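No member's difference of the isolates from parental turned under any alternative, and between S1b and S1a only that of TGFB1, near 0, did (0.01, range -0.11 to 0.13). The size of small differences from parental depended on the scaling. With median centring that of TGFB2 went from -0.39 to -0.2, of ACVR1 from -0.49 to -0.3 and of TGFBR2 from 0.31 to 0.5. The ENG difference of S1b from S1a (3.32) was 3.05 with a pseudocount of 16, 2.57 when its probe sets were averaged, and 3.17 to 3.48 with an array left out; both ENG probe sets carry the suffix _s_at, so it has no value with shared-probe suffixes left out, nor with a filter at the 60th percentile, which ENG did not pass. With a filter at the 60th percentile, 1 member lay below parental in both isolates and 2 lay higher in S1b than in S1a, among 5 past it. With suffixes left out, 1 lay above parental and 1 lower in S1b, among 5. With quantile normalization and with median centring 4 members lay above parental, against 3 on the deposited scale, the added one being TGFBR3. With an array left out, members above parental numbered 3 to 4, below 3 to 4, higher in S1b 4 to 5 and lower 2 to 3. Pathway genes lower in the isolates on average (37) numbered 24 at the 60th percentile (59 tested), 24 with median centring and 22 with suffixes left out (57 tested), where 12 were higher. Those lower in S1a (31) numbered 20 at the 60th percentile and 17 with median centring; higher in S1a (18), 11 with suffixes left out; lower in S1b against parental (30), 16. With an array left out, the counts ran from 17 to 20 higher and 28 to 32 lower in the isolates on average, 13 to 18 and 17 to 28 in S1a (17 without S1a replicate 2), and 13 to 23 and 26 to 30 in S1b. Between the isolates (0 higher, 3 lower), 1 was higher with median centring, 2 with array weights; lower were 1 with the mean of probe sets, 1 with suffixes left out, 1 without the variance trend and 6 with array weights; with an array left out, 0 to 1 were higher and 1 to 8 lower, 8 without parental replicate 1, 7 without parental replicate 2 and 1 without any single isolate array. Named calls were counted in the comparison under which a gene was picked. That leaves out SMAD3, IL11 and PMEPA1 for the isolates on average. Of the 35 counted, 22 held under every alternative that gave a value and 13 ended under at least 1. The cause of these changes was not tested, apart from the fewer genes tested where a filter or suffix left them out. The replicate numbers did not pair the arrays (correlations of deviations 0.00861, -0.0744 and -0.0956). The replicate block gave 19 higher and 34 lower in the isolates on average, and 79 of 80 results counted as unchanged. The other was the ACVR2B call, which ended (limma adjusted p = 0.0671) with its difference still at -0.83. The filter at the 40th percentile of all probe sets was added after seeing the data. With 2 arrays a population and no detection calls, small differences of dim genes such as ACVRL1 and TGFBR1 were not resolved.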
